A study of Mus musculus with 12 samples.

Results

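The comparison described here is that of Hdac2-deleted with control enteroids by RNA-Seq. Its libraries were chosen by their labels, which mark 4 as control and 4 as homozygous Hdac2 mutant, so that 8 of the 12 libraries of the series enter, the other 4 being Hdac1-deleted. The deposited table of this comparison lists 18225 of the 18929 genes found in either table of the series. Enteroids are 3-dimensional cultures of intestinal epithelium that grow from isolated crypts, and these were grown from jejunal crypts for 5 days in ENR medium, which holds EGF, Noggin and R-spondin. The Hdac2-deleted enteroids came from floxed Hdac2 mice that carried the villin-Cre transgene, which drives Cre in intestinal epithelial cells. The control enteroids are called wild-type in the labels and villin-Cre controls in the account of the study, and all mice had a C57BL/6J X 129SV X CD1 background. The crypts came from 1 mouse of each genotype, whose age and sex are not given in the sources used here. The 4 libraries of a group are therefore not known to be 4 mice, p-values measure the spread between these libraries, and the deletion cannot be told apart from other features of the mouse or its culture.

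HDAC2 is a class I histone deacetylase. With its close relative HDAC1 it forms the catalytic core of the Sin3, NuRD and CoREST complexes, which remove acetyl groups from lysines of histones and other proteins. In the crypt, Lgr5-positive stem cells give rise to dividing progenitors, from which absorptive enterocytes and the secretory goblet, Paneth, enteroendocrine and tuft cells derive. Wnt signals keep stem cells and Paneth cells at the crypt base, Notch signals favour the absorptive over the secretory fate, and BMP signals rise towards the villus.

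The libraries held 20693200 to 30080755 counts on genes. CPM is the count relative to the library's total, and the levels of genes are given after TMM scaling. A floor of detection of 3 counts in a library corresponds to 0.0997 to 0.145 CPM of the unscaled total. This floor covers counting error only. Between 2 libraries of 1 group the counts differed by more than sampling noise (chi-square per gene of 1.52 to 8.18 over 12 pairs). They were therefore not merged as repeat runs of 1 library. Each counted as 1 replicate, though whether they were separate cultures is not stated in the sources used here. Of the listed genes, 14007 had enough counts to be tested with edgeR's quasi-likelihood test, and a gene passed if its Benjamini-Hochberg adjusted p was 0.05 or less. The RNA was that of epithelium. Epcam, an adhesion molecule of all gut epithelial cells, stood at 1233 ± 25.1 CPM (SD, n = 4) in control and 1275 ± 20.7 CPM in Hdac2-deleted enteroids, a difference that did not pass (log2 fold change 0.05, standard error 0.03, edgeR adjusted p = 0.14), and Krt8 and Krt19, keratins of simple epithelia, rose by 0.65 and 0.64 on the log2 scale. Col1a1, Pdgfra, Ptprc, Csf1r, Pecam1 and Elavl4, which define fibroblasts, immune cells, endothelium and neurons, lay between 0 and 0.662 CPM in the 8 libraries and were not tested. Of the 20 listed markers of fibroblasts 3 were tested and 0 passed, and their summed level was 6.32 CPM in control and 7.013 CPM in Hdac2-deleted enteroids. Of 20 immune markers 4 were tested and 3 rose (Itgam by 1.69, Laptm5 by 1.27 and Cd68 by 0.45), with a summed level of 30.09 and 31.16 CPM. Of the endothelial and the neuronal markers, 3 each were tested and 1 each fell, Esam and Ret, by 1.10 and 0.74. In bulk RNA, fewer cells of a type and less RNA per cell cannot be told apart, which holds for each lineage below.

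Hdac2 itself (ENSMUSG00000019777, chromosome 10 of GRCm38, 36974544 to 37001889) was counted at 138, 134, 131 and 140.3 CPM in the 4 control libraries and 77.7, 79.0, 73.6 and 73.1 CPM in the 4 Hdac2-deleted libraries. The groups did not overlap, and the transcript fell by 0.84 on the log2 scale (standard error 0.04, edgeR adjusted p = 1.7e-14) while staying at 73.1 CPM or more in all 4 mutant libraries. The counts are per gene, so reads of the floxed part cannot be separated from reads of the rest of the transcript. Hdac1 and Hdac3, which encode other class I deacetylases, were also lower, at log2 changes of -0.26 (standard error 0.04, edgeR adjusted p = 1.1e-05) and -0.23 (standard error 0.03, edgeR adjusted p = 9.3e-07).

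With an adjusted p of 0.05 or less and more than a 2-fold change, the thresholds of the study, 764 genes (5.45% of those tested) were higher and 398 (2.84%) lower in Hdac2-deleted enteroids. Most differences were small. At any size, 4402 genes (31.4%) were higher and 4327 (30.9%) lower, of which 2938 and 3308 changed by less than 1.5-fold, and 5278 (37.7%) did not pass. The higher genes reached larger folds, with 241 beyond 4-fold and 102 beyond 8-fold against 96 and 41 of the lower genes. The higher genes supplied 35.5% of all counts in control and 45.2% in Hdac2-deleted enteroids, and the lower genes 40.1% and 32.4%. Of the genes more than 2-fold higher, 409 had a control mean under 1 CPM and 109 a control mean of at least 10 CPM. Of those more than 2-fold lower, 232 had an Hdac2-deleted mean under 1 CPM, and 94 had a control mean of at least 10 CPM. The median log2 fold change over all tested genes was -0.004, with quartiles of -0.221 and 0.238, and in 7841 of them (56.0%) the 4 libraries of one group all lay above the 4 of the other. The counts of gene groups below are read against these shares.

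**Figure D1:**
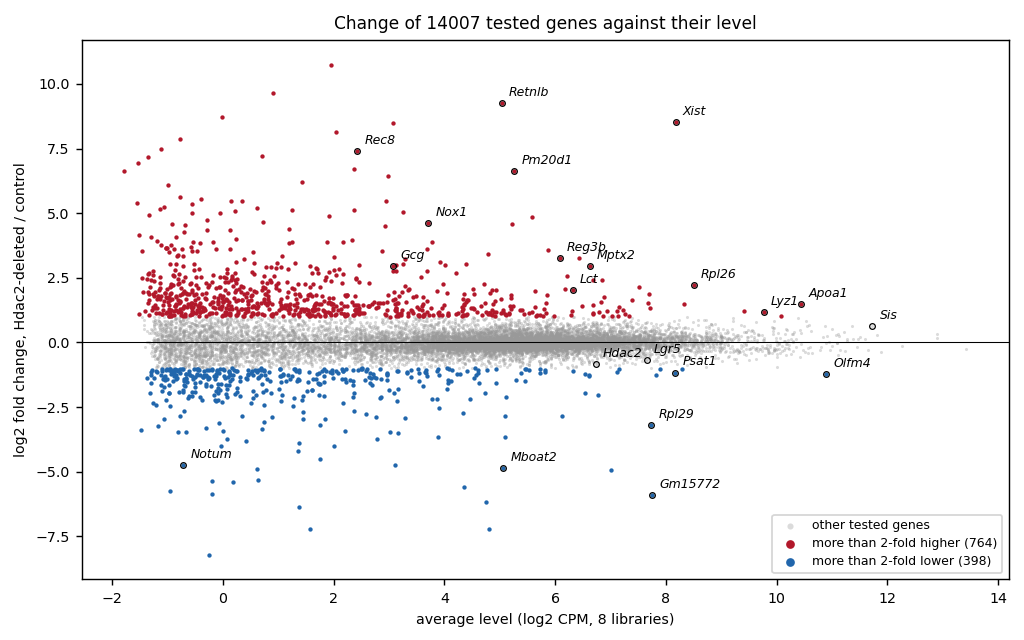
Log2 fold change (Hdac2-deleted over control) of each of the 14007 tested genes against its average level in log2 CPM over the 8 libraries, with red points for the 764 genes more than 2-fold higher and blue points for the 398 more than 2-fold lower. The red points spread further from 0 than the blue ones at low and middle levels, and few genes with an average above 8 log2 CPM are coloured.

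Enterocyte genes were among the largest gains in absolute level. Sis, the sucrase-isomaltase of the brush border, stood at 2427, 2783, 2744 and 2799.9 CPM in control and 4247, 3887, 3925 and 4423 CPM in Hdac2-deleted libraries. Apoa1, an apolipoprotein that enterocytes secrete, stood at 795, 695, 698 and 754 CPM in control and 2175, 1966, 1926 and 2148 CPM in Hdac2-deleted libraries. In both genes the groups did not overlap, with log2 changes of 0.62 and 1.48 (standard errors 0.05 and 0.05, edgeR adjusted p = 5.7e-08 and 3.0e-12). Apoa4, another apolipoprotein, and Lypd8, a secreted protein that keeps flagellated bacteria from the epithelium, were also among the 5 largest gains, with log2 changes of 0.65 and 0.95. The 5 largest losses were those of Eef1a1 (translation elongation, log2 fold change -0.25), Olfm4 (crypt base stem cells, -1.23), Scd2 (a fatty acid desaturase on chromosome 19, -0.39), Cps1 (the first enzyme of the urea cycle, -0.48) and Hsp90ab1 (a cytosolic chaperone, -0.30).

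Genes of the absorptive lineage were higher across the list. Of 30 enterocyte genes 29 were tested and 29 rose, 7 of them by more than 2-fold, with a median log2 change of 0.65 and a summed level of 22084 CPM in control and 33502 CPM in Hdac2-deleted enteroids. Lct, the lactase of the brush border, stood at 31.1, 32.0, 30.8 and 33.8 CPM in control and 128, 120.5, 109.9 and 161 CPM in Hdac2-deleted libraries. The Hdac2-deleted libraries spread more widely than control (SD 22.2 against 1.35 CPM), and all 4 lay above control (log2 fold change 2.03, standard error 0.13, edgeR adjusted p = 7.3e-06). Mep1a and Mep1b, the subunits of the brush border protease meprin, rose by 1.59 and 1.63 on the log2 scale, Alpi, intestinal alkaline phosphatase, by 0.83, and Fabp1 and Fabp2, which bind fatty acids in the cytosol, by 0.51 and 0.37. Vil1, the actin bundler whose promoter drives the Cre, rose by 0.44 (standard error 0.03, edgeR adjusted p = 8.1e-12), from 646 ± 3.12 to 878 ± 14.3 CPM.

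Along the villus axis the increase held for both ends. Of 18 genes of the villus tip 17 were tested and 16 rose, 5 of them by more than 2-fold, with a median log2 change of 0.61. Nt5e, an ectoenzyme that makes adenosine from AMP, stood at 0.331, 0.42, 0.328 and 0.459 CPM in control and 3.27, 4.31, 4.21 and 3.98 CPM in Hdac2-deleted libraries, and Slc28a2, a nucleoside transporter, rose by 2.79 (standard error 0.13, edgeR adjusted p = 1.6e-13). Tmigd1, an adhesion protein of mature enterocytes, rose by 3.86, from 0.3 ± 0.0277 to 4.39 ± 0.862 CPM. These 3 genes were thus low in control and did not overlap between groups. Of 14 genes of the lower villus and crypt top 11 were tested, 10 rose and 1, Reg1, fell, with a median of 0.95. Reg3b, a C-type lectin that kills Gram-negative bacteria, stood at 16.4, 12.5, 10.5 and 13.1 CPM in control and 130.1, 117, 118 and 132 CPM in Hdac2-deleted libraries, and the groups did not overlap (log2 fold change 3.25, standard error 0.11, edgeR adjusted p = 2.0e-08).

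Crypt base stem cell genes moved the other way. All 22 were tested, 18 fell and 2 rose, 2 in each direction by more than 2-fold, and their summed level was 6309 CPM in control and 3931 CPM in Hdac2-deleted enteroids. Olfm4, a secreted glycoprotein that marks these cells, stood at 2812, 2623, 2603 and 2689.9 CPM in control and 1187, 1089, 1069 and 1238 CPM in Hdac2-deleted libraries. Lgr5, the receptor of R-spondins, stood at 229, 263, 258 and 245 CPM in control and 149, 153, 159 and 159 CPM in Hdac2-deleted libraries. Neither gene overlapped between groups, with log2 changes of -1.23 and -0.69 (standard errors 0.04 and 0.04, edgeR adjusted p = 3.6e-14 and 1.6e-11). Ascl2 and Smoc2, a transcription factor and a matrix protein of the same cells, fell by 0.44 and 0.59, and Gkn3 fell by 1.17 (standard error 0.10, edgeR adjusted p = 4.0e-09). The 2 members that rose were Clca4a, by 1.79 from 2.41 ± 0.352 to 8.22 ± 0.831 CPM, and Tnfrsf19, a receptor of the TNF family, by 1.07 from 1.52 CPM in control.

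Of the secretory lineages, Paneth cell genes rose more often than they fell. Of 27 members 17 were tested, 9 rose and 3 fell, with a median log2 change of 0.32. Of the 3 that fell, 2 lie on chromosome 19. Without that chromosome 9 of 15 tested members rose and 1 fell, with a median of 0.40. The list's summed level was 2785 CPM in control and 4175 CPM in Hdac2-deleted enteroids. Lyz1, the lysozyme of Paneth cells, stood at 598, 488, 511 and 569.5 CPM in control and 1221, 1201, 1149 and 1256 CPM in Hdac2-deleted libraries, and the groups did not overlap (log2 fold change 1.16, standard error 0.06, edgeR adjusted p = 8.5e-09). Mptx2, a pentraxin of mature Paneth cells, stood at 22.6, 22.5, 21.9 and 24.1 CPM in control and 183, 184, 165 and 179.7 CPM in Hdac2-deleted libraries, an increase of 2.97 (standard error 0.04, edgeR adjusted p = 2.1e-22). Itln1, Mmp7 and Ang4, a lectin, the protease that activates alpha-defensins and an antimicrobial ribonuclease, rose by 0.57, 0.70 and 0.18, whereas the alpha-defensin Defa24 (log2 fold change 0.02) did not pass. Pnliprp2, a lipase on chromosome 19, was the member that fell furthest, by 2.04. Reg4, found in Paneth, goblet and enteroendocrine cells, rose by 1.76 (standard error 0.04, edgeR adjusted p = 2.2e-19).

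Goblet cell genes rose in 19 of 26 tested members (27 in the list) and fell in 3, with a median log2 change of 0.38 and summed levels of 2697 and 3879 CPM. Muc2, the main secreted gel-forming mucin, stood at 32.7, 50.8, 40.1 and 44.0 CPM in control and 76.2, 71.1, 85.0 and 99 CPM in Hdac2-deleted libraries. Clca1, a protease of the mucus layer, stood at 66.1, 70.6, 71.1 and 66.5 CPM in control and 294, 308, 306 and 289 CPM in Hdac2-deleted libraries. Zg16, a lectin of the same layer, stood at 91.3, 85.7, 87.1 and 95.6 CPM in control and 333, 328, 326 and 319 CPM in Hdac2-deleted libraries. The Muc2 values varied most among libraries, and in all 3 genes the groups did not overlap (log2 changes of 0.98, 2.13 and 1.86, standard errors 0.16, 0.03 and 0.03, edgeR adjusted p = 0.0018, 1.1e-21 and 9.5e-21). Tff3, Fcgbp and Agr2, a trefoil peptide, a mucus scaffold protein and the disulfide isomerase that Muc2 needs, rose by 0.18, 0.53 and 0.34. Retnlb, a resistin-like protein that goblet cells secrete and that kills bacteria, showed the largest increase of any gene with an average of at least 3 log2 CPM. It stood at 0.132, 0.105, 0.0984 and 0.0835 CPM in control and 64.2, 71.6, 68.3 and 66.7 CPM in Hdac2-deleted libraries, that is 2 to 4 counts in each control library (log2 fold change 9.26, standard error 0.11, edgeR adjusted p = 5.7e-24), so that the direction is clear from the counts and the size of the ratio is not precise. The 3 members that fell were Creb3l1, a secretory pathway transcription factor (by 0.89), Scin, an actin-severing protein (by 0.68), and Slc12a8.

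Enteroendocrine genes were mostly higher, though not all of them. Of 33 members 29 were tested, 18 rose, 10 of them by more than 2-fold, and 3 fell. Gcg, which encodes proglucagon and thus GLP-1, stood at 1.99, 1.86, 1.97 and 2.17 CPM in control and 16.0, 16.1, 16.3 and 13.3 CPM in Hdac2-deleted libraries. Cck, which encodes cholecystokinin, stood at 4.83, 3.33, 4.23 and 4.26 CPM in control and 14.7, 15.0, 15.6 and 12.6 CPM in Hdac2-deleted libraries. Neither overlapped between groups, with log2 changes of 2.95 and 1.79 (standard errors 0.10 and 0.10, edgeR adjusted p = 3.3e-16 and 1.1e-12). Ghrl (ghrelin), Gip, Sct (secretin), Nts (neurotensin) and Scg2, a granule protein, rose by 1.84, 1.12, 1.07, 2.20 and 2.34. The progenitor transcription factors Neurog3 and Pax4 fell by 0.89 and 0.94, Neurod1 (log2 fold change -0.06) and the hormone gene Sst (somatostatin, 0.29) did not pass, and of the granins Chga fell by 0.18 and Chgb rose by 0.28. Tph1, the enzyme of serotonin synthesis in enterochromaffin cells, stood at 6.62, 7.5, 6.46 and 7.14 CPM in control and 5.81, 6.81, 6.77 and 5.89 CPM in Hdac2-deleted libraries, with overlapping groups (log2 fold change -0.13, standard error 0.09, edgeR adjusted p = 0.2).

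Few tuft cell genes passed. Of 27 members 16 were tested, 2 rose, 3 fell and 11 did not pass. Trpm5, the cation channel of taste and tuft cells, stood at 1.99, 2.17, 2.39 and 2.09 CPM in control and 1.18, 1.29, 1.11 and 1.04 CPM in Hdac2-deleted libraries, and Pou2f3, the transcription factor that tuft cells need, at 2.04 ± 0.129 CPM in control and 1.31 ± 0.159 CPM in Hdac2-deleted enteroids. They fell by 0.90 and 0.63 (standard error 0.16, edgeR adjusted p = 6.8e-05 and standard error 0.16, edgeR adjusted p = 0.002), whereas Dclk1, with a log2 fold change of -0.54 and an edgeR adjusted p = 0.064, did not pass. Without control replicate 1, the log2 fold change of Dclk1 was -0.70 and passed. Plcg2, a phospholipase also expressed outside tuft cells, went against them at 5.16, 5.50, 5.11 and 4.68 CPM in control and 34.0, 33.7, 32.1 and 32.5 CPM in Hdac2-deleted libraries, an increase of 2.69 (standard error 0.06, edgeR adjusted p = 6.8e-19).

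**Figure D2:**
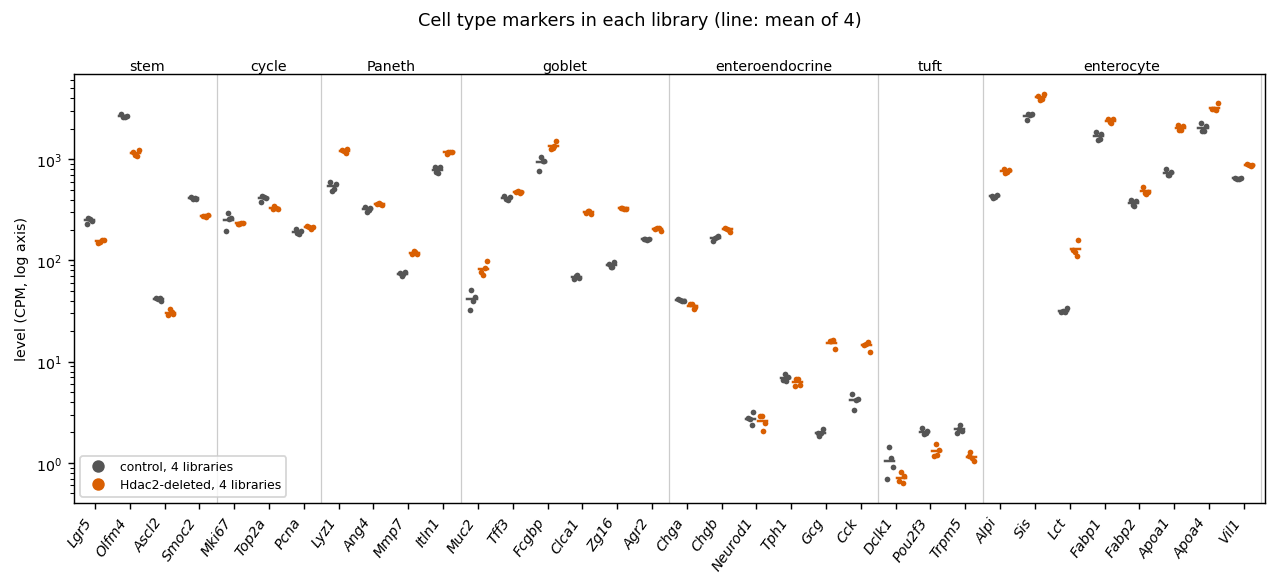
Level of cell type markers in each of the 4 control (grey) and 4 Hdac2-deleted (orange) libraries, in CPM on a log axis, with a line at the mean of the 4. Stem cell markers lay lower and enterocyte, goblet and Paneth markers higher in all 4 Hdac2-deleted libraries. The tuft markers Trpm5 and Pou2f3 went from about 2 CPM to between 1 and 2 CPM, and Mki67, Pcna, Neurod1, Tph1 and Dclk1 overlapped between the groups.

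Genes of the fetal and regenerative epithelium, which are switched on when adult epithelium repairs itself, gave the highest median of the lineage lists. Of 20 members 17 were tested, 15 rose, 11 of them by more than 2-fold, and 2 fell, with a median log2 change of 1.5. S100a6, a calcium-binding protein, stood at 40.1, 34.4, 34.6 and 36.8 CPM in control and 206, 199.7, 200.3 and 173 CPM in Hdac2-deleted libraries. Msln, the surface protein mesothelin, stood at 31.3, 35.1, 34.6 and 30.2 CPM in control and 173, 188, 185 and 154 CPM in Hdac2-deleted libraries. Clu (clusterin), the mark of revival stem cells, stood at 27.8, 29.0, 30.0 and 24.3 CPM in control and 112, 136, 118 and 104 CPM in Hdac2-deleted libraries. In all 3 genes the groups did not overlap, with log2 changes of 2.42, 2.41 and 2.08 (standard errors 0.06, 0.07 and 0.10, edgeR adjusted p = 3.0e-12, 7.5e-11 and 1.3e-07). Sprr1a, Anxa3, Ly6a (Sca-1) and, on chromosome 19, Il33 rose by 1.67, 1.18, 0.91 and 1.84. Ly6e fell by 1.03 from 317 to 155 CPM, and Cyr61, a YAP target, fell by 0.24. Afp, the alpha-fetoprotein of fetal liver and gut, was in no list and was among the 10 largest increases, at 2.65, 1.75, 1.87 and 1.75 CPM in control and 25.4, 25, 24.4 and 24.3 CPM in Hdac2-deleted libraries.

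Regional identity showed no single direction. Of 13 genes of the proximal small intestine 12 were tested, 8 rose and 2 fell, with Pdx1, a transcription factor of the duodenum, up by 1.51 and Akr1b7, an aldo-keto reductase, up by 1.18. Of 10 ileal genes 8 were tested and 6 rose, among them Slc51a and Slc51b, the subunits of the basolateral bile acid exporter, by 1.08 and 1.03, and Amn, part of the receptor for vitamin B12, by 0.53. Of 20 colonic genes 9 were tested, 6 rose and 2 fell, with Slc26a3, a chloride-bicarbonate exchanger, up by 0.79 and Ly6g up by 5.13 from 3 to 6 counts per control library. Of 20 genes of stomach and pancreas 5 were tested, of which Pgc and Tff1 rose by 1.97 and 1.34 and Ctrb1, Atp4a and Cela1 fell by 0.68, 0.52 and 0.28. Of 36 transcription factors of intestinal identity 35 were tested, 22 rose and 5 fell, with a median of 0.16. Maf, a factor of villus enterocytes, rose by 1.15 (standard error 0.06, edgeR adjusted p = 1.1e-12), Hnf4a rose by 0.17, and Cdx2, the master factor of intestine, stood at 260.1 and 257 CPM and did not pass.

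Cell division genes were lower by small and even amounts. All 39 genes of DNA replication were tested, 38 fell and 1 rose, none by more than 2-fold, with a median log2 change of -0.42 and summed levels of 3306 and 2505 CPM. Of 33 genes of mitosis, 32 fell and 0 rose, with a median of -0.36. Top2a, the topoisomerase of dividing cells, stood at 379, 434, 427 and 418 CPM in control and 325, 342, 329.6 and 320.0 CPM in Hdac2-deleted libraries. Plk1, a kinase of mitotic entry, stood at 162, 166, 165 and 167 CPM in control and 99.8, 106, 103 and 101 CPM in Hdac2-deleted libraries. The groups did not overlap in either (log2 changes of -0.33 and -0.69, standard errors 0.04 and 0.03, edgeR adjusted p = 2.0e-07 and 3.1e-14). Pola2, Fen1 and Kif11, of DNA polymerase alpha, flap removal and the spindle, fell by 1.00, 0.88 and 0.87, and all 3 lie on chromosome 19. Some common markers of dividing cells went differently. Mki67 stood at 197, 293, 258 and 264 CPM in control and 230.2, 231, 235 and 232 CPM in Hdac2-deleted libraries, with overlapping groups (log2 fold change -0.12, standard error 0.12, edgeR adjusted p = 0.4), and without control replicate 1, the lowest of the 4, its log2 fold change was -0.23 and passed. Pcna, the sliding clamp, stood at 205, 188, 182 and 194 CPM in control and 221, 214, 203 and 212 CPM in Hdac2-deleted libraries and was the replication gene that rose, by 0.14 (standard error 0.04, edgeR adjusted p = 0.0017).

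Cell cycle inhibitors and p53 targets were tested in 26 of 26 members, of which 12 rose and 3 fell. Cdkn2a, which encodes p16 and p19ARF, stood at 0.828, 1.02, 0.82 and 1.21 CPM in control and 4.23, 3.99, 4.16 and 3.59 CPM in Hdac2-deleted libraries, an increase of 2.06 (standard error 0.15, edgeR adjusted p = 2.0e-10). Cdkn1a (p21), Trp53inp1 and Mdm2 rose by 0.61, 1.03 and 0.27, whereas Gdf15, a stress cytokine, fell by 1.11, from 28.5 ± 1.89 to 13.2 ± 1.21 CPM.

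Cytosolic ribosomal protein genes fell together, 70 of 75 tested, with a median log2 change of -0.30 and a summed level of 65213 CPM in control and 53682 CPM in Hdac2-deleted enteroids. Rpl29 and Rpl26, proteins of the large subunit, went far beyond the rest and in opposite directions. Rpl29 stood at 404, 368, 366 and 389 CPM in control and 40.3, 40.4, 46.1 and 41.9 CPM in Hdac2-deleted libraries, and Rpl26 at 134, 119.6, 124 and 133 CPM in control and 611, 605, 580.0 and 597 CPM in Hdac2-deleted libraries (log2 fold change 2.23, standard error 0.04, edgeR adjusted p = 1.5e-21). Rps2 and Rpl34 also rose, by 0.84 and 0.17. The Rpl29 and Rpl26 values are uncertain, since ribosomal protein genes have many near-identical processed copies between which the counting could split reads. Of the 10 largest decreases 8 were those of pseudogenes (Gm8979, Rps13-ps1, Gm15772, Gm7993, Rps2-ps10, Gm10036, Gm6472 and Gm10039). The same applies to those that are processed copies, while Gm8979 is an unprocessed pseudogene, whose sharing of reads with other genes was not tested. Of the 398 genes more than 2-fold lower, 71 (17.8%) were processed pseudogenes, against 4.70% of the genes tested. Gm15772 fell from 421 ± 21 to 6.97 ± 1.26 CPM. Among the 10 largest increases, Gm8399 rose from 3.04 ± 0.263 to 74.2 ± 4.40 CPM, and Gm3608 and Tpm3-rs7, also copies of other genes, by 3.90 and 4.83.

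Wnt targets and pathway genes were mostly lower, 15 of 25 tested (30 in the list) against 3 that rose. Lrp5, a Wnt co-receptor on chromosome 19, fell by 0.74 (standard error 0.03, edgeR adjusted p = 3.4e-14), and the feedback inhibitors Nkd1 and Axin2 by 0.89 and 0.42. Notum, a secreted inhibitor of Wnt proteins, was named after its values were seen. It stood at 0.971 CPM in control and had at most 3 counts in each Hdac2-deleted library, and was thus at least 6.70-fold lower (edgeR adjusted p = 4.6e-08), the bound being computed against 3 counts in the shallowest library. The 3 that rose were the ligand Wnt6 (by 1.91), the target Sp5 (by 0.40) and the receptor Fzd5 (by 0.40), while Ctnnb1, which encodes beta-catenin, did not pass (log2 fold change 0.04).

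Of the Notch pathway 22 of 25 members were tested, 3 rose, 7 fell and 12 did not pass. The receptor Notch3 rose by 0.93 (standard error 0.10, edgeR adjusted p = 5.0e-08), and Neurog3, which Notch signals repress, fell by 0.89 (standard error 0.07, edgeR adjusted p = 2.8e-10). Of the BMP and TGF-beta pathway 21 of 26 were tested, 9 rose and 5 fell. Smad6, an inhibitor of BMP receptors, stood at 6.69, 7.25, 7.21 and 6.97 CPM in control and 1.36, 1.29, 1.45 and 1.47 CPM in Hdac2-deleted libraries, a decrease of 2.34 (standard error 0.11, edgeR adjusted p = 2.0e-13) with no overlap. The ligand Bmp8b and the target Id1 rose by 1.41 and 1.10, and the ligand Bmp4 fell by 1.54 from 0.975 to 0.336 CPM. Of the EGF family 22 of 24 were tested, 7 rose and 10 fell, and the ERK-induced genes Dusp4, a phosphatase of MAP kinases, and Etv5, an ETS factor, fell by 1.17 and 0.81 (standard error 0.08, edgeR adjusted p = 5.4e-08 and standard error 0.05, edgeR adjusted p = 1.5e-11). Immediate early and AP-1 genes rose in 14 of 20 tested (24 in the list) and fell in 4, with the stress factor Atf3 up by 0.95 and the phosphatase Dusp1 up by 0.64.

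Most lists of lipid metabolism held more genes that rose than fell. Lipid absorption and chylomicron genes were all tested, 17 of 20 rose and 1 fell, with a median log2 change of 0.51 and a summed level of 7737 CPM in control and 13027 CPM in Hdac2-deleted enteroids. Mttp, which loads lipid onto apolipoprotein B, and Apob rose by 0.83 and 1.03, and Cd36, a fatty acid translocase, rose by 1.17 (standard error 0.05, edgeR adjusted p = 1.8e-14). Fatty acid oxidation genes rose in 22 of 27 tested and fell in 3, with a median of 0.17, led by Slc27a2, a very long chain acyl-CoA synthetase, up by 1.08. Cholesterol synthesis genes rose in 21 of 24 and fell in 2 by small amounts, with a median of 0.25. Insig1, the sterol sensor of the endoplasmic reticulum, stood at 806, 816, 796 and 787 CPM in control and 1179.6, 1186, 1185 and 1148 CPM in Hdac2-deleted libraries. Fatty acid and triglyceride synthesis genes rose in 15 and fell in 8 of 26 tested. Of those 8, 6 lie on chromosome 19, among them Fads1, a desaturase that fell by 1.04. Me1, the malic enzyme that supplies NADPH, rose by 1.27 (standard error 0.03, edgeR adjusted p = 3.0e-18). The list's summed level fell from 10160 CPM in control to 9326 CPM, and its median was 0.17 with and 0.31 without the genes of chromosome 19.

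Ketone body genes were divided, with 3 of 7 higher and 3 lower. Oxct1, with which tissues use ketone bodies, rose by 0.57 (standard error 0.03, edgeR adjusted p = 6.3e-13).

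Sugar and energy genes changed less. Of glycolysis 21 of 23 genes were tested, 10 rose and 5 fell, with a median log2 change of 0.07. Gapdh and Ldha rose by 0.22 and 0.13, while Pgam1, on chromosome 19, and Eno2, the neuronal enolase, fell by 0.51 and 1.5. Fructose, galactose and gluconeogenesis genes rose in 13 of 18 and fell in 2, with Galt, of galactose use, and G6pc, the phosphatase that releases glucose, up by 1.07 and 0.99. Tricarboxylic acid cycle genes rose in 12 of 21 and fell in 4, with Ogdh and Mdh2 up by 0.53 and 0.41. Of the nuclear-encoded respiratory chain 16 of 42 rose and 5 fell. Of these 5, 4 lie on chromosome 19, among them Ndufb8 (complex I) and Cox8a (complex IV), which fell by 0.67 and 0.60. Of the mitochondrial DNA-encoded chain 12 of 13 were tested, 6 rose, mt-Cytb and mt-Nd4 among them by 0.42 and 0.41, and 2 fell.

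Genes of serine, one-carbon and amino acid synthesis fell in 18 of 32 and rose in 9, with summed levels of 8029 and 6577 CPM. Psat1, the aminotransferase of serine synthesis on chromosome 19, stood at 383, 398, 406 and 398 CPM in control and 173, 185, 181 and 168 CPM in Hdac2-deleted libraries, a decrease of 1.17 (standard error 0.03, edgeR adjusted p = 2.2e-17). Aldh1l1, which oxidises formyl-tetrahydrofolate, went against the list at 23, 20.1, 21.1 and 23.3 CPM in control and 126, 129, 127 and 130.1 CPM in Hdac2-deleted libraries (log2 fold change 2.55, standard error 0.04, edgeR adjusted p = 2.8e-21). Amino acid and peptide transporters rose in 8 and fell in 6 of 20 tested, with Slc6a20a, which carries proline, and Slc43a2, which carries large neutral amino acids, up by 1.54 and 1.24.

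Purine breakdown genes rose in 12 of 17 tested (19 in the list), 7 of them by more than 2-fold, and fell in 4. Besides Nt5e, Xdh, the last enzyme before uric acid, rose by 1.15 from 63.8 to 142 CPM, and Urah, which acts on a product of uric acid, stood at 0.199, 0.175, 0.426 and 0.209 CPM in control and 7.72, 7.83, 7.69 and 7.28 CPM in Hdac2-deleted libraries (log2 fold change 4.87, standard error 0.18, edgeR adjusted p = 1.5e-15). Pm20d1, a secreted enzyme that joins fatty acids to amino acids, was in no list and was among the largest increases, at 0.861, 0.841, 0.951 and 0.459 CPM in control and 80.5, 76.3, 78.3 and 78.2 CPM in Hdac2-deleted libraries. Itih5, a hyaluronan-binding protein, rose by 5.04, and Cym, the milk-clotting protease chymosin, fell by 4.74. Mboat2, an acyltransferase of phospholipids, was among the largest decreases, at 64.9, 60.0, 63.0 and 61.2 CPM in control and 2.28, 2.23, 2.08 and 2.04 CPM in Hdac2-deleted libraries. Pm20d1 and Mboat2 changed by more than 20-fold with no overlap between groups, with log2 changes of 6.61 and -4.84 (standard errors 0.08 and 0.07, edgeR adjusted p = 1.4e-23 and 7.4e-23).

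Xenobiotic genes of phase I, which oxidise or hydrolyse drugs and lipids, rose in 24 of 36 tested (37 in the list), 11 of them by more than 2-fold, and fell in 3, with a median log2 change of 0.63. Cyp4f16, an omega-hydroxylase of eicosanoids, stood at 7.71, 9.07, 10.9 and 9.23 CPM in control and 105, 112, 111 and 111 CPM in Hdac2-deleted libraries, and the groups did not overlap (log2 fold change 3.57, standard error 0.06, edgeR adjusted p = 6.8e-19). Cyp2c29, on chromosome 19, rose by 2.28 against the direction of most genes of that chromosome, and the drug-oxidising enzymes Cyp3a11, Cyp3a13 and Cyp2b10, named after their values were seen, rose by 1.04, 1.47 and 1.20. Of phase II conjugating genes 21 of 32 tested rose and 5 fell, with the sulfotransferase Sult2b1 up by 1.39 and the glutathione transferase Gsta1 down from 128 ± 7.84 to 55.7 ± 2.14 CPM. Glutathione and redox genes rose in 13 and fell in 6 of 24, with Hmox1, which breaks down haem, up by 1.15 and Gpx2, the glutathione peroxidase of gut epithelium, up by 0.56. Metal and haem genes rose in 17 of 24 and fell in 4, with the zinc importer Slc39a4 up by 0.94. Ion and fluid transport genes rose in 19 of 28 and fell in 6. Ano1, a calcium-activated chloride channel, rose by 1.85, and Car8, a protein of the carbonic anhydrase family, fell by 1.94 (standard error 0.10, edgeR adjusted p = 6.0e-09 and standard error 0.04, edgeR adjusted p = 6.0e-20).

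Interferon-stimulated genes rose in 27 of 37 tested members, 11 of them by more than 2-fold, and fell in 1, with a median log2 change of 0.58. The list has 51 members, and those not tested were too low or not listed. The summed level of the list was 830 CPM in control and 1006 CPM in Hdac2-deleted enteroids, so the members described here, at a few CPM or less, were among its low ones. Of the 4 tested immune markers 3 also rose, with a median log2 change of 0.86, and the part of such cells in the result was not tested. Oas1a, which makes the activator of RNase L, stood at 0.794, 0.981, 0.787 and 0.668 CPM in control and 5.77, 5.68, 6.97 and 5.33 CPM in Hdac2-deleted libraries, and the related Oasl2 at 1.06, 1.12, 0.721 and 0.793 CPM in control and 3.86, 3.99, 4.26 and 2.43 CPM in Hdac2-deleted libraries. Both rose with no overlap between groups, by 2.86 and 1.97 (standard error 0.15, edgeR adjusted p = 5.7e-13 and standard error 0.19, edgeR adjusted p = 1.9e-08). The following members were named after their values were seen. Isg15, a ubiquitin-like modifier, rose by 1.87 from 0.308 to 1.12 CPM, Oas3 by 2.28 from 0.214 to 1.06 CPM, and Oas1g, at most 3 counts in each control library and 0.917 CPM in Hdac2-deleted enteroids, was at least 7.26-fold higher (edgeR adjusted p = 1.0e-08). Irf7 and Irf9, which transmit interferon signals, rose by 0.81 and 0.83, and Ifit1 and Bst2 did not pass.

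The promoters of these genes are shown because the letters that the interferon-stimulated response element requires can be read in them. In the RefSeq annotation of GRCm38.p6, 9843 of the tested genes (70.3%) had a promoter sequence, of which the 250 bases before the start were searched on both strands. The motif, GAAA followed after any 2 bases by another GAAA, was found in 12 of 28 promoters of the interferon list (42.9%), in 6 of 8 of those more than 2-fold higher, and in 2.99% of all tested promoters. Among all genes more than 2-fold higher it was found in 24 of 517 promoters (4.64%). With 28 of 37 tested members matched (75.7%, under 80%), the share of the list, and that of its higher members, is void as a comparison with all promoters. In the 100-base windows below, written 5′ to 3′ on the strand of the gene, capitals mark the letters of every match, which overlap where the run is longer than 10. The windows are chr5:120887614-120887713 (strand -) for Oas1g, chr5:120907526-120907625 (strand -) for Oas1a, chr5:120777680-120777779 (strand -) for Oas3 and chr4:156200830-156200929 (strand -) for Isg15.
Oas1g: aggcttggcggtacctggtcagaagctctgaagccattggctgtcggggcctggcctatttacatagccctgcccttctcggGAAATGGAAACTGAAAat
Oas1a: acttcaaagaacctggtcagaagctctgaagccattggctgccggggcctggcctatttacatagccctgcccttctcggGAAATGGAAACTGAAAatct
Oas3: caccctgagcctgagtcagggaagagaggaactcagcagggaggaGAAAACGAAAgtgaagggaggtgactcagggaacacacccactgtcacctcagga
Isg15: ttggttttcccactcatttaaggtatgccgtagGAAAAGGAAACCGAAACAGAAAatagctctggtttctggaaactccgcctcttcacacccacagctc
The windows of Oas1g and Oas1a carry the same capitals near the start, and that of Isg15 holds 3 overlapping matches. A match is a run of letters and not a shown binding site.

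The same search is given for mitosis and enterocyte genes. CCAAT, the letters bound by NF-Y, a factor of many cell cycle genes, was found in 22 of 28 promoters of the mitosis list (78.6%) and in 40.9% of all tested promoters, with 28 of 33 members matched (84.8%). Among all genes more than 2-fold lower the share was 39.8%, close to that of all promoters. CAAAGTCCA, the letters bound by HNF4 factors of enterocytes, was found in 2 of 26 promoters of the enterocyte list (7.69%) and in 0.518% of all, with 26 of 29 members matched (89.7%). Neither gene was more than 2-fold higher, and of the 6 enterocyte genes more than 2-fold higher with a promoter 0 held it. The windows of 3 mitosis genes and of both enterocyte genes are printed as above, from chr19:37376282-37376381 (strand +) for Kif11, chr7:122159335-122159434 (strand +) for Plk1, chr2:131186848-131186947 (strand +) for Cdc25b, chr1:87101607-87101706 (strand -) for Alpi and chr9:44673117-44673216 (strand +) for Treh.
Kif11: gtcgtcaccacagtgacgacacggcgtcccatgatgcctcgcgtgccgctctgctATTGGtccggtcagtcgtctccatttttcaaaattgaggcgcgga
Plk1: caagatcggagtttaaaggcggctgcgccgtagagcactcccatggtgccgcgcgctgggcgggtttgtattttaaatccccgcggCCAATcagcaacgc
Cdc25b: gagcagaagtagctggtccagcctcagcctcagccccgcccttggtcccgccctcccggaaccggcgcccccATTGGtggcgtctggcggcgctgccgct
Alpi: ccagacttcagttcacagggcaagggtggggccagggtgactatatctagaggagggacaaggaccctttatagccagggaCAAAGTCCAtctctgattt
Treh: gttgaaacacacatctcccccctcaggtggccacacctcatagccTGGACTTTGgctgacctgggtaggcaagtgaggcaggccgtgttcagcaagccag
Where the capitals read ATTGG or TGGACTTTG, the motif lies on the other strand. Kif11, Plk1 and Cdc25b fell and Alpi and Treh rose, Cdc25b (log2 fold change -0.64) and Treh (0.73) being named after their values were seen.

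Innate defence genes also rose. Of 39 antimicrobial and acute phase genes 28 were tested, 21 rose, 14 of them by more than 2-fold, and 4 fell, with a median log2 change of 0.98. Nox1, an NADPH oxidase that makes superoxide, stood at 0.927, 1.37, 1.08 and 0.877 CPM in control and 27.1, 24, 24.8 and 28.9 CPM in Hdac2-deleted libraries (log2 fold change 4.61, standard error 0.11, edgeR adjusted p = 8.6e-19). Duox2 and its maturation factor Duoxa2, which make hydrogen peroxide at the apical surface, rose by 2.19 and 2.04. Of 45 genes of NF-kB, Toll receptors and chemokines 34 were tested, 23 rose, 9 of them by more than 2-fold, and 5 fell. Nos2, the inducible nitric oxide synthase, stood at 0.0331, 0, 0.0984 and 0.0418 CPM in control and 16.9, 16.6, 18.1 and 19.1 CPM in Hdac2-deleted libraries. With at most 3 counts in each control library it was at least 139.9-fold higher (edgeR adjusted p = 6.8e-19). The chemokines Ccl20 and Cxcl16 rose by 1.82 and 1.17, whereas Tlr1, a receptor of bacterial lipopeptides, fell by 2.66 (standard error 0.12, edgeR adjusted p = 6.4e-14).

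Of 32 gasdermin, caspase and inflammasome genes 23 were tested, 20 rose and 1 fell. Il18, a cytokine that inflammasomes activate, stood at 9.32 ± 0.501 CPM in control and 44.6 ± 3.92 CPM in Hdac2-deleted enteroids, and Mlkl, the executioner of necroptosis, stood at 2.32, 2.17, 2.10 and 2.09 CPM in control and 10.4, 10.6, 12.4 and 9.57 CPM in Hdac2-deleted libraries. Both rose with no overlap, by 2.26 and 2.30 (standard error 0.07, edgeR adjusted p = 8.9e-17 and standard error 0.10, edgeR adjusted p = 6.2e-14). MHC class I and antigen processing genes rose in 18 of 23 tested (26 in the list) and fell in 2, with the non-classical H2-Q6 and H2-Q7, which are close copies and thus uncertain, up by 1.48 and 1.27. Of 11 MHC class II genes 2 were tested, H2-DMa and Ctss, which rose by 0.86 and 0.36.

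Genes of the unfolded protein response and folding in the endoplasmic reticulum rose in 26 of 32 and fell in 2 by small amounts, with a median log2 change of 0.21. Ddit3 (CHOP) and Dnajb9, an ER co-chaperone, rose by 0.79 and 0.60 (standard error 0.06, edgeR adjusted p = 4.5e-10 and standard error 0.05, edgeR adjusted p = 1.1e-09). Of 24 tested genes of cytosolic heat shock proteins and the proteasome 9 fell and 3 rose, with a median of -0.05. Over all tested genes 30.9% fell and 31.4% rose, so the share that fell was near that of all genes. Psmb1, of the proteasome, fell by 0.40, and the heat shock gene Hspa1b rose by 0.47.

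Cytoskeleton and matrix genes rose. Keratin and brush border genes rose in 21 of 25 tested (27 in the list) and fell in 0, with a median of 0.58. Myo1a, the myosin that ties microvillar actin to the membrane, stood at 394, 407, 410.0 and 400.3 CPM in control and 812, 765, 767 and 796 CPM in Hdac2-deleted libraries, an increase of 0.96 (standard error 0.03, edgeR adjusted p = 9.9e-17). Krt4, a keratin of stratified epithelium, rose by 3.32. Extracellular matrix, integrin and protease genes rose in 18 of 29 tested (39 in the list) and fell in 1. Col4a1 and Col4a2, the chains of basement membrane collagen, stood at 2.91, 3.75, 3.64 and 2.59 CPM in control and 28.4, 30.7, 29.1 and 24.1 CPM in Hdac2-deleted libraries and at 2.02, 2.52, 2.30 and 2.05 CPM in control and 15.1, 15.7, 16.2 and 14.2 CPM in Hdac2-deleted libraries. Both rose with no overlap between groups (log2 changes of 3.11 and 2.78, standard errors 0.10 and 0.09, edgeR adjusted p = 9.8e-15 and 2.6e-16). Of the fibroblast markers 3 were tested and 0 passed, and the part of such cells in the rise was not tested. Junction genes rose in 20 of 29 and fell in 4, with Cldn23, a claudin of tight junctions, up by 0.49. Mucin and glycosyltransferase genes rose in 19 and fell in 10 of 32, with the membrane mucin Muc3 up by 1.41 and the fucosyltransferase Fut2 up by 1.09.

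**Figure D3:**
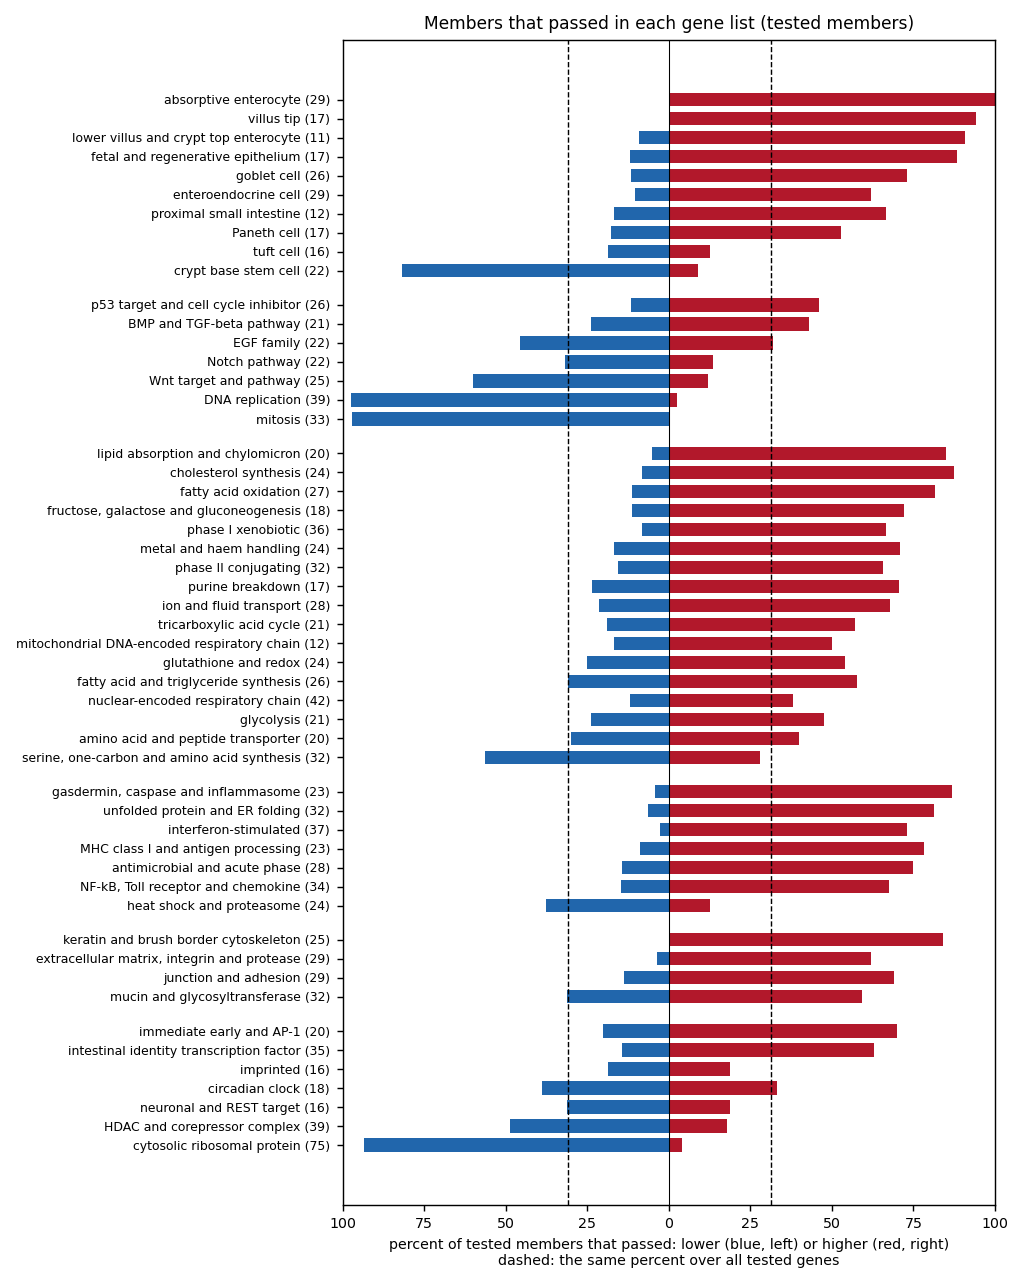
Percent of the tested members of each gene list (number in brackets) that passed the edgeR test as higher (red, right) or lower (blue, left) in Hdac2-deleted enteroids, with dashed lines at the shares of all tested genes, 31.4% higher and 30.9% lower. The enterocyte, villus tip, lower villus, and fetal and regenerative lists reach furthest right, and DNA replication, mitosis, ribosomal protein and stem cell lists furthest left.

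**Figure D4:**
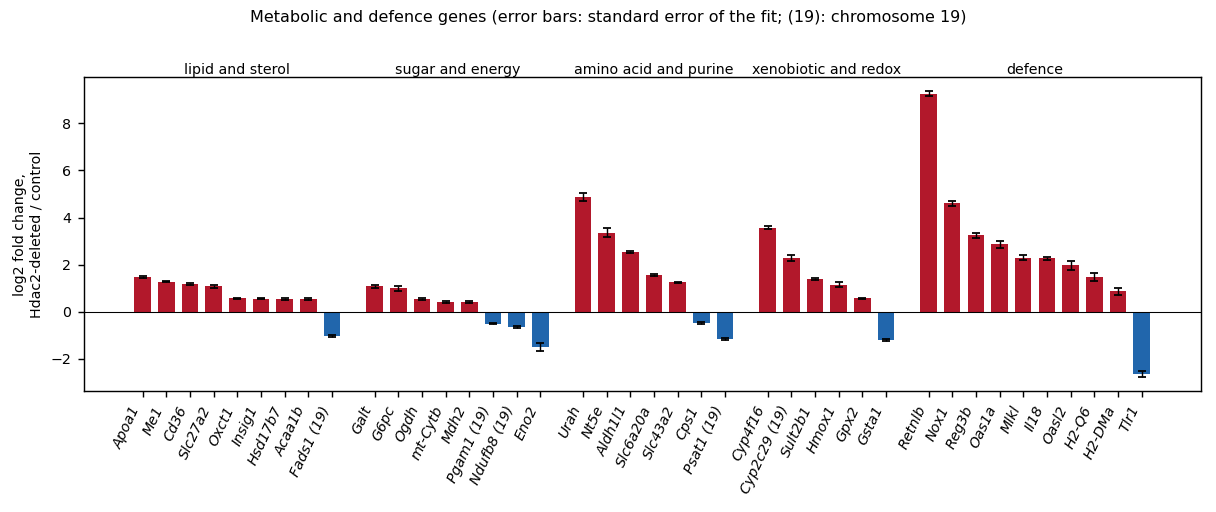
Log2 fold change of metabolic and defence genes named in the text, with bars from 0 and error bars for the standard error of the edgeR estimate, (19) marking genes on chromosome 19. Most bars are positive, Eno2, Cps1, Gsta1 and Tlr1 are negative and not on chromosome 19, and Fads1, Pgam1, Ndufb8 and Psat1 are negative and on it.

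Of the complexes that hold HDAC2, 39 of 40 listed members were tested, 7 rose and 19 fell, by less than 2-fold except for Rcor2, a CoREST subunit on chromosome 19, which fell by 1.02 (standard error 0.05, edgeR adjusted p = 9.7e-14). Mta2 of NuRD, also on chromosome 19, and Rbbp4, a histone chaperone shared by these complexes, fell by 0.70 and 0.40, and Chd3 of NuRD rose by 0.77. Of 32 germline and meiosis genes 5 were tested, 4 rose and 1 fell. Rec8, the cohesin of meiosis, stood at 0.132, 0.0701, 0 and 0.0418 CPM in control and 12.2, 9.16, 12.9 and 11.2 CPM in Hdac2-deleted libraries, from 0 to 4 counts in each control library, and Rhox5, named after its values were seen, was at least 17.5-fold higher. Syce2 fell by 0.96. Of 34 neuronal genes 16 were tested, 3 rose and 5 fell, and of 31 imprinted genes 16 were tested, 3 rose and 3 fell. Clock genes rose in 6 and fell in 7 of 18 tested, with Arntl up by 0.56 and Dbp down by 0.84.

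Xist, the RNA that coats the inactive X chromosome, stood at 1.69, 1.4, 1.71 and 1.42 CPM in control and 536, 495, 676 and 628 CPM in Hdac2-deleted libraries (log2 fold change 8.54, standard error 0.18, edgeR adjusted p = 1.3e-08). Kdm6a and Kdm5c, which escape X inactivation, rose by 0.64 and 0.59, Eif2s3x and Ddx3x by 0.27 and 0.17, and Jpx and Ftx did not pass. Over the 426 tested genes of the X chromosome the median log2 fold change was -0.07. Of 4 listed genes of the Y chromosome 2 were tested, of which 1 was more than 2-fold higher and 1 more than 2-fold lower. Neither was among the 14 sex chromosome markers gathered for the gene lists. Of those 14 markers 7 were tested, and all 7 are the X chromosome genes named above. The Y chromosome markers among them were below the filter or not listed, and so were not tested against control. In the direct comparison with Hdac1-deleted enteroids, which has its own filter, the 8 listed markers were tested, Xist among them. Of these 1 was higher and 2 lower in Hdac2-deleted enteroids, and 0 differed by more than 2-fold. The rise of Xist over control was thus not called as a difference between the mutants. Whether the mice differed in sex cannot be told apart from the deletion here.

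Genes of chromosome 19 were lower as a whole. Of its 498 tested genes 379 (76.1%) fell and 53 (10.6%) rose, 41 (8.23%) and 21 (4.22%) of them by more than 2-fold, and the median log2 fold change was -0.51. In 6 bins of 10 Mb along the chromosome the median lay between -0.57 and -0.36, whereas 18 autosomes other than 19 had medians from -0.02 to 0.09. The 68 tested genes within 10 Mb of Hdac2 had a median of -0.05, with 1 of them more than 2-fold higher and 0 lower. In the direct comparison with Hdac1-deleted enteroids, the median of 513 genes of chromosome 19 was -0.02, so that the offset was not seen between the 2 mutants. Values of genes on chromosome 19 above therefore hold this offset, whose source was not tested. Leaving these genes out gave 743 higher and 357 lower genes beyond 2-fold.

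**Figure D5:**
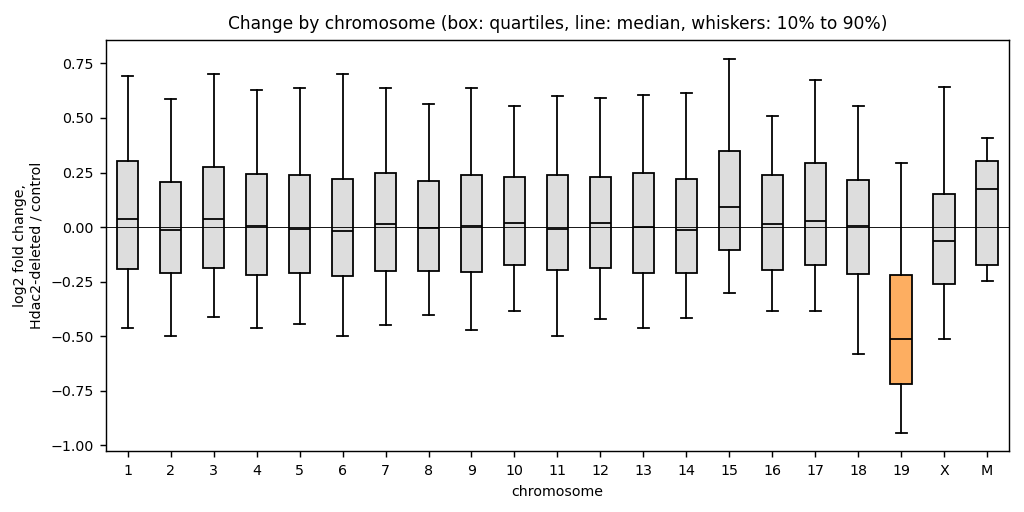
Log2 fold change (Hdac2-deleted over control) of the tested genes of each chromosome, with boxes for the quartiles, a line for the median and whiskers from the 10th to the 90th percentile. Chromosome 19 (orange), with a median of -0.51, lies below the other autosomes, and X lies near them.

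Where the change differed from that of Hdac1 deletion was read from a fit of all 12 libraries, in which the same 4 control libraries serve both mutants and the mutants were compared directly. Of 14510 genes, 816 (5.62%) differed by more than 2-fold, 419 higher and 397 lower in Hdac2-deleted enteroids. At any size 3436 (23.7%) were higher and 3229 (22.3%) lower. Hdac2 itself was lower in Hdac2-deleted than in Hdac1-deleted enteroids by 0.56 (standard error 0.04, edgeR adjusted p = 9.8e-13). Among the genes called against control, Il1rn, the interleukin 1 receptor antagonist, stood at 7.20 ± 1.02 CPM in control, 3.05 ± 0.38 CPM in Hdac1-deleted and 26.8 ± 3.26 CPM in Hdac2-deleted enteroids (log2 difference of Hdac2-deleted from Hdac1-deleted 3.13, standard error 0.11, edgeR adjusted p = 7.1e-16), so that it lay above control in one mutant and below it in the other. Sprr2a2, a cornified envelope protein that epithelia make on contact with bacteria, stood at 6.01 ± 0.516 CPM in control, 1.23 ± 0.128 CPM in Hdac1-deleted and 12 ± 1.38 CPM in Hdac2-deleted enteroids, in the same order. Of the genes lower than in Hdac1-deleted enteroids, Mboat2 stood at 62.7 ± 2.39 CPM in control, 22.3 ± 1.05 CPM in Hdac1-deleted and 2.16 ± 0.116 CPM in Hdac2-deleted enteroids, and Naaladl1, a peptidase on chromosome 19, at 3.6 ± 0.222 CPM in control, 108 ± 11.8 CPM in Hdac1-deleted and 14 ± 1.20 CPM in Hdac2-deleted enteroids (log2 difference of Hdac2-deleted from Hdac1-deleted -2.95, standard error 0.08, edgeR adjusted p = 2.0e-15). Mboat2 was thus lowest and Naaladl1 between control and Hdac1-deleted enteroids. Rpl29, Gm8399, Gm7993 and Gm10036 also met the rule and are uncertain because of near-identical copies. The unprocessed pseudogene Gm8979 met it too, and its sharing of reads was not tested.

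By groups, goblet cell genes were higher in Hdac2-deleted than in Hdac1-deleted enteroids in 15 of 26 tested and lower in 2, with Clca1 at 69.1 ± 2.54 CPM in control, 159 ± 12.5 CPM in Hdac1-deleted and 299.6 ± 8.69 CPM in Hdac2-deleted enteroids, and fetal and regenerative genes were higher in 14 of 19 and lower in 2. Enterocyte genes, which rose against control, were lower than in Hdac1-deleted enteroids in 15 of 29 and higher in 7, with Lct at 32.2 ± 1.31 CPM in control, 232 ± 29.7 CPM in Hdac1-deleted and 130.0 ± 22.3 CPM in Hdac2-deleted enteroids. Tuft cell genes were lower in 7 of 17 and higher in 1. In metabolism, glycolysis genes were higher in 19 of 21 and lower in 1, cholesterol synthesis genes higher in 22 of 24 and lower in 0, and genes of the mitochondrial DNA-encoded respiratory chain lower in 12 of 13 and higher in 0. mt-Cytb, a subunit of complex III, stood at 1367 ± 65.6 CPM in control, 3618 ± 210.3 CPM in Hdac1-deleted and 1820.2 ± 147 CPM in Hdac2-deleted enteroids (log2 difference of Hdac2-deleted from Hdac1-deleted -0.99, standard error 0.05, edgeR adjusted p = 9.5e-11). Insig1 stood at 807 ± 13 CPM in control, 761 ± 34.0 CPM in Hdac1-deleted and 1175 ± 17.4 CPM in Hdac2-deleted enteroids (log2 difference of Hdac2-deleted from Hdac1-deleted 0.63, standard error 0.03, edgeR adjusted p = 7.5e-15), close to control in one mutant and above it in the other. p53 targets and cell cycle inhibitors were higher in 16 of 26 and lower in 1, and AP-1 genes higher in 13 of 21 and lower in 0.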

How the data were processed

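RNA-Seq gene counts of jejunal enteroids were compared between 4 Hdac2-deleted and 4 control libraries, grouped and numbered by their labels. Poly(A) RNA (RIN above the limit set by the study) was made into directional libraries and sequenced as paired reads of 100 bases, and alignment by the authors was to GRCm38 with STAR (the submitters' processing notes name version 2.4.0f1 and bcl2fastq 1.8.4). The deposited counts are whole reads per gene with no normalization, and no gene listed had fewer than 10 counts in the 8 libraries together, and the counting program is not given in the sources used here. A normalized score that the authors deposited beside each count, which is the count scaled by 1 factor per library and rounded, was not used. The columns of the authors' own comparison (log2 fold changes, log2 CPM averages, and p-values from DESeq and edgeR) were not used either.

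Counts were tested with edgeR 4.0.16 (R 4.3.3, limma 3.58.1; quasi-likelihood F test, robust, TMM factors of 0.983 to 1.0172, filterByExpr, Benjamini-Hochberg adjustment over 14007 genes). The common biological coefficient of variation was 0.0384. Standard errors were taken as the absolute log2 fold change over the root of its F statistic. Mutants were compared in a fit of all 12 libraries over 14510 genes, and only that fit used the Hdac1-deleted libraries. Depths of 20693200 to 30080755 counts set the floor of 3 counts, and where no library of a group exceeded 3 counts a fold is given as a bound, computed against 3 counts in the shallowest of them. Positions and biotypes came from GENCODE M21, which held 18129 (99.5%) of the listed genes, and promoters from RefSeq (GRCm38.p6).

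The comparison, the 64 gene lists and their members were chosen with earlier results of these data known, and lists are described by counts and medians with no set test. A list's untested members were below the filter or not listed. Genes were named by this rule. It takes Hdac1, Hdac2 and Hdac3, the 10 largest increases and decreases among called genes that did not overlap and averaged at least 3 log2 CPM, and the 5 largest gains and losses of CPM. From each list it takes the 3 (lineages) or 2 (others) largest changes among passing members with at least 1 log2 CPM on average, then every cell type marker, and the 5 largest differences each way from Hdac1-deleted enteroids. Il25, Col3a1, Cd3e, Cdh5 and Sox10 were such markers and had no row. A few genes that met the rule are not reported here. Further list members were named after their values were seen. They are Anxa3, Apob, Axin2, Bmp4, Bst2, Cd68, Cdc25b, Cdkn1a, Cdx2, Chd3, Creb3l1, Ctnnb1, Cxcl16, Cyp2b10, Cyp3a11, Cyp3a13, Cyr61, Ddx3x, Defa24, Duox2, Duoxa2, Eif2s3x, Ftx, Fzd5, Gapdh, Gip, Hnf4a, Id1, Ifit1, Il33, Irf7, Irf9, Isg15, Itgam, Jpx, Kdm5c, Laptm5, Ldha, Ly6a, Ly6e, Mdm2, Mta2, Mttp, Nkd1, Notum, Nts, Oas1g, Oas3, Pax4, Pgc, Rbbp4, Reg1, Rhox5, Rpl34, Rps2, Scin, Sct, Slc12a8, Sp5, Sprr1a, Sst, Tff1, Tnfrsf19, Treh, Trp53inp1, Wnt6 and Xdh.

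The alternatives were DESeq2 (1.42.0), relative log expression factors, no filter on low counts, no limit on the fold change, the replicate number as a block, each library left out in turn, sex chromosomes left out and, between the mutants, the 8 mutant libraries alone. Leaving out chromosome 19 and testing protein-coding genes only were added after the data were seen. The scripts were tested on simulated counts. Summaries used Python 3.11.15 with pandas 2.3.3, numpy 2.4.6 and scipy 1.17.1, and plots used matplotlib 3.10.9.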

Additional observations from a re-analysis of the deposited data

Results flagged for a closer look

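Among the named genes, 1 library stood apart from the other 3 of its group in 21 of 372 groups of 4 (5.65%), where chance gives about 1 in 20. Each was found because the gap between that library and its nearest neighbour, as a share of the range of the group, was above Dixon's 95% critical value for 4 values. By library, 5, 2, 1 and 1 of these were in control replicates 1 to 4, and 3, 2, 1 and 6 in Hdac2-deleted replicates 1 to 4.

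In control replicate 1 they were Afp (highest at 2.65 CPM, the others 1.75 to 1.87, share 0.869), Gm8979 (lowest at 42.6 CPM, the others 57.4 to 57.7, share 0.976), Gm6472 (highest at 66.0 CPM, the others 59.9 to 60.5, share 0.913), Sis (lowest at 2427 CPM, the others 2744 to 2799.9, share 0.851) and H2-Q6 (lowest at 0.761 CPM, the others 1.37 to 1.42, share 0.919). In control replicate 2 they were Bmp8b (highest at 7.81 CPM, the others 6.32 to 6.51, share 0.871) and Oxct1 (highest at 265 CPM, the others 253 to 255, share 0.834), in control replicate 3 Urah (highest at 0.426 CPM, the others 0.175 to 0.209, share 0.866) and in control replicate 4 Krt4 (lowest at 0.334 CPM, the others 0.861 to 0.885, share 0.955). For each of these genes the control and Hdac2-deleted libraries did not overlap.

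In Hdac2-deleted replicate 1 they were Lypd8 (highest at 1811 CPM, the others 1738 to 1748, share 0.864), Scd2 (lowest at 3239 CPM, the others 3282 to 3289.7, share 0.840) and Mep1a (highest at 47.4 CPM, the others 45 to 45.3, share 0.857). Hdac2-deleted replicate 2 stood apart for Ccl20 (lowest at 6.93 CPM, the others 7.40 to 7.49, share 0.841) and Notch3 (highest at 7.09 CPM, the others 6.21 to 6.32, share 0.873). Hdac2-deleted replicate 3 stood apart for Dusp1 (highest at 14.2 CPM, the others 12.1 to 12.3, share 0.897). Hdac2-deleted replicate 4, with 6 genes, stood apart for Gm7993 (highest at 0.866 CPM, the others 0.772 to 0.783, share 0.882), Gm6472 (highest at 6.24 CPM, the others 4.34 to 4.54, share 0.893), Gcg (lowest at 13.3 CPM, the others 16.0 to 16.3, share 0.910), Insig1 (lowest at 1148 CPM, the others 1179.6 to 1186, share 0.845), Sult2b1 (highest at 40.0 CPM, the others 36.4 to 36.9, share 0.869) and Slc39a4 (lowest at 114 CPM, the others 122 to 123, share 0.910). These genes did not overlap between the groups either, and each of the log2 fold changes above kept its direction and its side of the threshold without that library. Afp and Gm6472 were named only by the rule for the largest changes, which requires no overlap. Of all tested genes 56.0% did not overlap.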

How the results depend on the processing

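The count of genes more than 2-fold higher (764) was 1170 with no filter on low counts and 4402 with no limit on the fold change, and the count more than 2-fold lower (398) was 622 and 4327. With protein-coding genes only, which leaves out 71 processed pseudogenes among the lower genes, 259 were lower and 680 higher. The higher count was 1070 with DESeq2, 763 with relative log expression factors, 739 without the X and Y chromosomes, 743 without chromosome 19 and 783 to 848 with each library left out in turn, and the lower count 512, 400, 384, 357 and 394 to 461. DESeq2 called 759 of the 764 and 389 of the 398. The comparison of the mutants (816) gave 740 with the mutant libraries alone, 818 with relative log expression factors, 1041 with no filter, 914 with DESeq2 and 831 to 874 with each library left out. The Hdac2 transcript lay between -0.86 and -0.83 throughout. The replicate number as a block gave 763 higher and 395 lower genes, 812 for the mutants and -0.84 for Hdac2. Same-numbered libraries did not deviate together (correlations -0.0591 to 0.0562, with 1 of 4 Hdac2-deleted libraries closest to its own number), so the numbers were not taken as pairs, and no source pairs them.

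Of 2220 log2 fold changes of 185 named genes over these alternatives, 2216 kept their direction and side of the threshold. Of these genes 180 had passed, and the rule names genes with large changes, so the count does not stand for all tested genes. Cdh1 lost its call without control replicate 4 (0.08), Mki67 (-0.23) and Dclk1 (-0.70) gained one without control replicate 1, and Neurod1, which did not pass, ran from -0.13 to 0.02 with each library left out. Over the 64 lists, 4 medians changed sign in some alternative (BMP and TGF-beta, endothelium and blood, fibroblast, neuronal), the germline median of 3.61 was 1.64 with DESeq2 and 1.48 with no filter, where more of its genes were tested, and leaving out chromosome 19 moved a median by at most 0.14. Depth limits the low genes, for which 3 counts are 0.0997 to 0.145 CPM. With crypts of 1 mouse per genotype, no alternative separates the deletion from the mouse.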

Other observations

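Chromosome 15 differed slightly in the comparison of the mutants. Of its 547 tested genes 277 were higher and 50 lower in Hdac2-deleted than in Hdac1-deleted enteroids, with a median log2 difference of 0.15, and against control its median was 0.09, with 236 of 531 tested genes higher and 101 lower. Over all 14510 genes the median of the mutant comparison was -0.01. Of the 22 genes of the mitochondrial chromosome 16 were lower and 1 higher than in Hdac1-deleted enteroids, with a median of -0.74.

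The called genes were also counted by biotype. Of 298 antisense genes 28 (9.40%) were more than 2-fold lower and 11 (3.69%) higher, of 217 lincRNA genes 13 (5.99%) were lower and 13 higher, and of 12246 protein-coding genes 259 (2.11%) lower and 680 (5.55%) higher. The kit marks strand, but the setting of the counting is not given in the sources used here.

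The lists covered a part of the called genes. Of the 764 genes more than 2-fold higher 151 were in a list, and of the 398 lower ones 24. Of the neuronal list Nrn1 had no count in any control library and 1.99 ± 0.135 CPM in Hdac2-deleted libraries (SD, n = 4), which was at least 15.8-fold higher. Of the imprinted list Grb10, which restrains insulin signals, went from 0.0905 ± 0.0296 CPM (2 to 3 counts in each control library) to 1.20 ± 0.278 CPM. Both were named after their values were seen. On the log2 scale L1cam rose by 0.50 and Slc22a18 by 0.49, and Cplx2 fell by 0.79. Of 12 genes of M cells, which carry antigen across the epithelium, 9 were tested, 5 rose and 2 fell, with Ccl20 up by 1.82 and Anxa5 by 1.13, beside Clu, which is also in the fetal list.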
